A study of Mus musculus with 10 samples.

Results

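The SMN complex and coilin were followed through 10 mouse genes: Smn1, Gemin2, Ddx20, Gemin4, Gemin5, Gemin6, Gemin7, Gemin8, Strap and Coil. The 10 rows of the gene count table that carry these names were taken, out of 25239 genes in all, and all 10 passed the filter on low counts that left 18419 genes for testing. The RNA came from testis of C57BL/6 mice at P4 and P7, the days of postnatal life around which spermatogonia start to differentiate. The 4 groups were P4 cKO (3 libraries), P4 WT (2 libraries), P7 cKO (3 libraries) and P7 WT (2 libraries). The cKO animals carry the genotype label Lsm7-flfl-stra8, which joins floxed alleles of Lsm7 to stra8 without naming a Cre line. The WT animals carry the label WT, and no agent is named for any group. Although the labels give germ cell as the cell type, RNA was extracted from testis and no sorting step is described, so every value is for the mixed cells of the organ. The labels do not say that libraries of a group came from separate animals, so the spread behind each p-value is that between libraries and could be technical.

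The SMN complex loads the ring of Sm proteins onto newly exported small nuclear RNAs (snRNAs) in the cytoplasm, the step that turns an snRNA into the core of a spliceosomal particle. SMN, the product of Smn1, is the scaffold, and Gemin2 holds the partly assembled Sm ring. Gemin5 recognises the snRNA, Ddx20 is the DEAD-box protein known as Gemin3, and Gemin4 binds to it. Gemin6, Gemin7 and Gemin8 form the outer arm of the complex, to which Strap, also called unrip, attaches. Assembled particles return to the nucleus and mature in Cajal bodies, whose scaffold is coilin, the product of Coil. Lsm7, the gene named in the genotype, encodes a subunit of the related LSm ring.

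All 10 genes are annotated as protein coding on GRCm38, the build of the table. Gemin4 (chr11:76210571-76217572, minus strand, 2 exons) and Gemin5 (chr11:58120001-58168539, minus strand, 33 exons) lie on the same chromosome as Coil (chr11:88973935-88991613, plus strand). Smn1 lies at chr13:100123205-100137698 (plus strand), Gemin2 at chr12:59013391-59028470 (plus strand) and Ddx20 at chr3:105678462-105687571 (minus strand). The outer arm genes are Gemin6 (chr17:80224451-80228497, plus strand), Gemin7 (chr7:19564949-19573343, minus strand, 2 exons), Gemin8 (chrX:166170454-166190512, plus strand) and Strap (chr6:137735082-137751930, plus strand, 10 exons). The counts cover all exons of a gene, with no separation of isoforms, and no other gene of the table overlaps the span of any of the 10.

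Library totals lay between 28.8 M and 41.8 M counted reads, and the members held between 285 and 15787 counts per sample. Within groups, both P7 WT libraries were the same to about sampling noise, with a chi-square per degree of freedom of 1.98 over genes, against 23.5 to 122.9 for the other pairs of one group. They were summed and counted as 1 sample, which leaves 9 samples, so the spread within P7 WT could not be measured and was taken as that of the other groups. The first P7 cKO library stood apart from the other 2 of its group, with chi-square values of 117.3 and 122.9 per degree of freedom, against 23.5 between the other 2. Lsm7 itself was read at 44.9, 50.5 and 43.6 CPM (counts scaled to a library of 1 M reads) in P4 cKO, against 36.2 and 25.7 CPM in P4 WT, and at 45.2, 26.0 and 20.3 CPM in P7 cKO, against 33.3 CPM in P7 WT. It differed past the threshold at neither stage (log2 fold change 0.58, SE 0.30, edgeR adjusted p = 0.215 at P4, and -0.13, SE 0.37, adjusted p = 0.835 at P7). With per-sample offsets for exon length and GC content, described below and built in 3 forms, the Lsm7 difference was 0.14, 0.34 and 0.05 at P4, and -1.13, -1.04 and -1.11 at P7 (edgeR adjusted p = 0.111, 0.134 and 0.132), again short of the threshold. At P4 every cKO sample lay above both WT samples for Lsm7. Over 21 alternative fits, listed at the end, its P4 difference ran from log2 0.05 to 0.85 and passed the threshold in 1. Its P7 difference passed in 0 of 21. Read counts per gene do not separate a deleted exon from the rest, so the genotype could not be checked from them and cKO below means the libraries labelled so. Stra8, a gene that retinoic acid switches on in germ cells, was read at 4.83, 5.85 and 3.56 CPM in P4 cKO, against 4.63 and 3.18 CPM in P4 WT. It stood at 55.7, 86.9 and 58.4 CPM in P7 cKO, against 67.2 CPM in P7 WT.

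Each gene's level is given in CPM after TMM scaling. Levels of different genes are compared only per length, as RPKM, which is CPM divided by the exon length in kilobases. On that scale Strap was highest and Gemin7 second in each of the 4 groups. Mean Strap was 91.8 ± 13.2 RPKM in P4 cKO (SD, n = 3), 73.7 ± 15.9 RPKM in P4 WT (SD, n = 2), 61.7 ± 2.28 RPKM in P7 cKO (SD, n = 3) and 103.6 RPKM in the single P7 WT sample. Gemin7 averaged 62.9 ± 2.93 RPKM in P4 cKO, 41.4 ± 4.10 RPKM in P4 WT, 49.6 ± 0.339 RPKM in P7 cKO and 37.9 RPKM in P7 WT. Smn1 and Ddx20 took the next places, in an order that differed between the P4 groups. Smn1 was the higher in P4 cKO, at 32.8 ± 1.16 RPKM, against 25.9 ± 2.36 RPKM for Ddx20. Ddx20 was the higher in P4 WT, at 32.7 ± 3.47 RPKM, against 25.1 ± 2.7 RPKM for Smn1. Gemin4 and Gemin8 were at or near the bottom, with Gemin4 at 4.24 ± 0.719 RPKM and Gemin8 at 5.57 ± 0.60 RPKM in P4 cKO. Gemin2, Gemin5, Gemin6 and Coil lay between on the RPKM scale, between 7.61 and 11.9 in P4 cKO and between 10.6 and 13.8 in P4 WT. Among them, Gemin2, Coil and Gemin6 were within an SD of their neighbours in P4 cKO. In summed RPKM the 10 genes reached 250.5, 274.3 and 267.7 in P4 cKO, against 223.3 and 241.9 in P4 WT. At P7 the sums were 256.9, 256.3 and 249.8 in cKO, against 275.4 in WT, and without Strap they were 197.3, 194.7 and 185.7 in cKO, against 171.9 in WT. The order of the sums between genotypes at P7 thus turned on Strap alone.

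**Figure D1:**
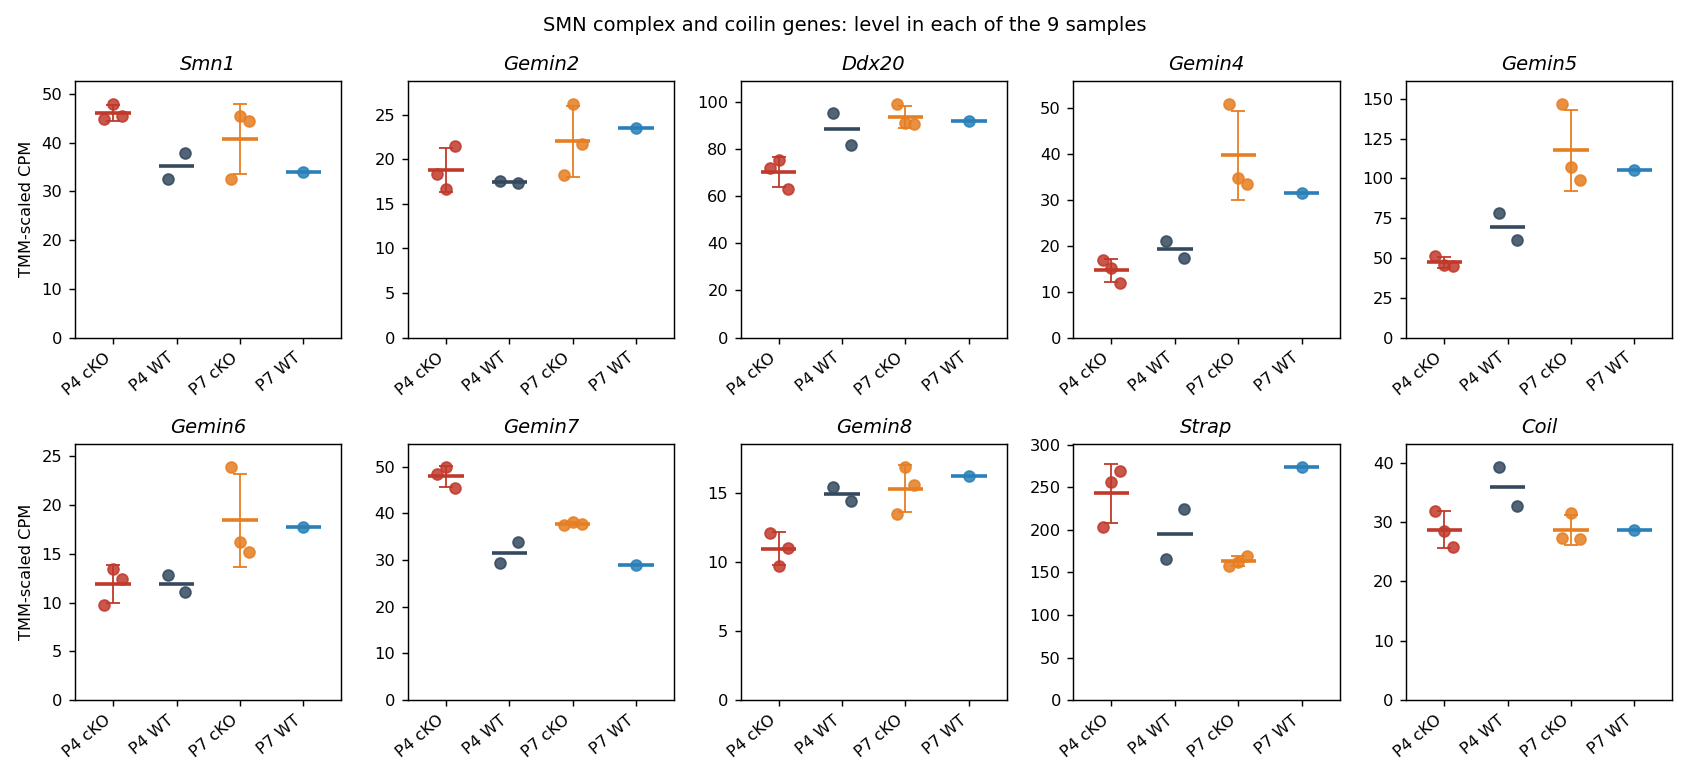
Level of each gene (vertical axis, TMM-scaled CPM, starting at 0) in the 9 samples, grouped on the horizontal axis as P4 cKO, P4 WT, P7 cKO and P7 WT. Points are samples, lines are group means and bars are ± 1 SD where a group has 3 samples. Gemin4 and Gemin5 stand higher in all 3 P7 cKO samples than in the 3 P4 cKO samples, and Strap stands lower in the P7 cKO samples (157.4 to 169.4 CPM) than in the P7 WT sample (273.8 CPM).

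For the 4 genes that passed the threshold between P7 and P4 in cKO, the sequence ahead of the start site is shown, as listed by RefSeq for GRCm38.p6. Promoter entries were found for all 10 genes, with 12 starts in all. Of the 250 bases upstream of a start, the stretch outside annotated exons is printed 5′ to 3′ on the gene's strand. Capitals mark the GC box GGGCGG or its complement CCGCCC. Gemin4 (chr11:76217749-76217822, minus strand), Gemin5 (chr11:58168540-58168789, minus strand) and Ddx20 (chr3:105687575-105687821, minus strand) were higher at P7 than at P4 in cKO, and Strap (chr6:137734832-137735077, plus strand) was lower.
Gemin4: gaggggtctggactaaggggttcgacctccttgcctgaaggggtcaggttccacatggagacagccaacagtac
Gemin5: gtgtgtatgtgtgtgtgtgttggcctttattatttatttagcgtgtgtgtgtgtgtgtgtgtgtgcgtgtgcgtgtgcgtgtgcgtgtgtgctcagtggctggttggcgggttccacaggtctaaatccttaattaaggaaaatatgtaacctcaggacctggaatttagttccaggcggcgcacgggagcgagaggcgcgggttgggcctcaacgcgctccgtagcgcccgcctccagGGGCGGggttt
Ddx20: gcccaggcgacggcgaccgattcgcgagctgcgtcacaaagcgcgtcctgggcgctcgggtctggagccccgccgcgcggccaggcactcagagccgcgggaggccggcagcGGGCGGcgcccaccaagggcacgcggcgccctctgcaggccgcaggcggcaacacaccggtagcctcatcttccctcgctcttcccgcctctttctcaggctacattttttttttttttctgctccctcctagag
Strap: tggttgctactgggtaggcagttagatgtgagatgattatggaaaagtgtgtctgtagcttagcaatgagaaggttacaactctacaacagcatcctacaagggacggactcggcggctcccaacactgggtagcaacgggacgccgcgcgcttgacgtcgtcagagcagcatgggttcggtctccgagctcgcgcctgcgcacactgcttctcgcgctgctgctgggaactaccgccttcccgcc
The Gemin5 and Ddx20 stretches each hold the GC box and the Strap stretch holds none, while the GC box of Gemin4 lies in the annotated exon bases that are not printed. A GC box on either strand lies within the 250 upstream bases of 7 of the 10 genes, against 32.74% of 32851 RefSeq promoters. Here and below, a gene counts if any of its listed starts holds the motif, while the RefSeq share is per promoter. Counted by start, 8 of 12 held a GC box. The boxes of Gemin7 and Coil, like that of Gemin4, lie in annotated exon bases. The 3 genes without a GC box are Strap, Smn1 and Gemin6. Of the other genes, Gemin6, without it, and Gemin8, with 2, lay higher in every P7 cKO sample than in every P4 cKO sample. Gemin7, with 4, lay lower. Gemin2 and Coil, with 1 each, and Smn1, without it, overlapped between the stages. The CCAAT box CCAAT was found for 2 of the 10 genes, against 33.85% of all promoters, the TATA box TATAAA for 1, against 12.37%, and the ETS core CCGGAAG for 2, against 6.91%. The YY1 core AAGATGGC, the E-box CACGTG and the E2F core TTTGGCGC were found for 0 of the 10. A match is a run of letters, on either strand, and says nothing of binding. The motifs and the sequences shown were chosen after the expression values were known.

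At P4, with cKO set against WT, Gemin7 was the one gene of the 10 to pass the threshold, an edgeR quasi-likelihood p adjusted over all genes below 0.05, and it was higher in cKO. That is 1 of 10 genes. Over all genes, 8.96% were called, 4.84% higher and 4.13% lower. The median log2 fold change of the 10 genes was -0.17, against 0.00 over all genes tested. In 2 of the 10 genes every cKO sample lay above every WT sample and in 5 every cKO sample lay below, while 24.1% of all genes lay above and 25.6% below in this way, 49.7% together.

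Gemin7, the small subunit that pairs with Gemin6, was read at 48.4, 49.9 and 45.5 CPM in P4 cKO, against 29.4 and 33.8 CPM in P4 WT. All 3 cKO samples lay above both WT samples. The fold was 1.52 (log2 0.60, SE 0.16, edgeR adjusted p = 0.0412). Gemin7 is the shortest of the 10 genes on the table's exon model (763 bases). It is also the richest in G and C (58.7% of the bases of its longest annotated transcript). Both properties moved with genotype across the whole table. When genes were cut into 10 equal bands by GC content, the median log2 fold change of cKO over WT was -0.21 in the lowest band and 0.26 in the highest at P4, and -0.91 in the lowest and 0.91 in the highest at P7. In bands by exon length it was 0.22 for the shortest genes and -0.12 for the longest at P4, and 0.61 for the shortest and -0.37 for the longest at P7. With per-sample offsets for length and GC content, the Gemin7 log2 difference at P4 was 0.10 (edgeR adjusted p = 0.743), and 0.28 and 0.01 with 2 other ways of building the offsets. Leaving out any 1 of the 5 P4 libraries, or P7 cKO library 2 or 3, also took the call away, with adjusted p-values of 0.0606 to 0.322, as did library totals (adjusted p = 0.0919) and testing without the low-count filter (adjusted p = 0.0503). At P7 the Gemin7 values were 37.6, 38.1 and 37.8 CPM in cKO, against 28.9 CPM in WT. The cKO samples again lay above the WT sample, at a log2 difference of 0.39 (SE 0.20, adjusted p = 0.202) that missed the threshold and turned to -0.75 (adjusted p = 0.178) with the offsets.

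Gemin6 and Gemin8, the partners of Gemin7, did not pass the threshold. Gemin6 was read at 9.72, 13.5 and 12.4 CPM in P4 cKO, against 12.9 and 11.1 CPM in P4 WT, with overlapping groups and a log2 difference of -0.01 (SE 0.25, adjusted p = 0.982). Counts of Gemin6 carry the added uncertainty of an annotated pseudogene, Gemin6-ps, on chromosome 6. Gemin8 stood at 12.1, 9.76 and 11.1 CPM in P4 cKO, against 15.5 and 14.4 CPM in P4 WT, all 3 cKO samples below both WT samples, at a log2 difference of -0.44 (SE 0.20, adjusted p = 0.165). Per length, the ratio of Gemin7 to Gemin8 was 10.3, 13.2 and 10.6 in P4 cKO, against 4.90 and 6.05 in P4 WT. The ratio did not overlap between the groups at P4, nor at P7, where it was 7.19, 5.82 and 6.25 in cKO, against 4.60 in WT. These ratios were chosen after the values were seen and were not tested, and they carry the length and GC difference given above.

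Smn1, the scaffold, was read at 44.8, 47.9 and 45.4 CPM in P4 cKO, against 32.5 and 37.9 CPM in P4 WT. The groups did not overlap, but the log2 difference of 0.39 (SE 0.19) did not pass the threshold (edgeR adjusted p = 0.193), and with the 3 forms of the offsets it was 0.20, 0.40 and 0.11 (adjusted p = 0.503, 0.185 and 0.684). At P7 the values overlapped, at 32.6, 45.5 and 44.3 CPM in cKO, against 33.9 CPM in WT, where the lowest cKO sample is the library that stands apart. That log2 difference was 0.27 (SE 0.24, adjusted p = 0.458). Gemin2, which grips the Sm ring, overlapped between genotypes at both stages, at 18.4, 16.7 and 21.5 CPM in P4 cKO, against 17.5 and 17.4 CPM in P4 WT, and at 18.3, 26.2 and 21.7 CPM in P7 cKO, against 23.6 CPM in P7 WT. Its log2 differences were 0.11 (SE 0.21, adjusted p = 0.752) at P4 and -0.10 (SE 0.26, adjusted p = 0.824) at P7. The 95% intervals of those differences, from -0.35 to 0.57 and from -0.66 to 0.47, leave room for changes of either sign.

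Gemin5, the snRNA-binding subunit, stood at 51.3, 45.5 and 45.0 CPM in P4 cKO, against 78.1 and 61.1 CPM in P4 WT. Every cKO sample lay below both WT samples, and the log2 difference of -0.56 (SE 0.20) missed the threshold (edgeR adjusted p = 0.0926). It passed at -0.72 (adjusted p = 0.0445) with library totals in place of TMM factors, at -0.57 (adjusted p = 0.0399) with the P4 groups fitted alone, and at -0.56 (adjusted p = 0.0211) without the first P7 cKO library, and in none of the other 18 alternatives. Ddx20 lay the same way, at 72.0, 75.4 and 63.0 CPM in P4 cKO, against 95.3 and 81.9 CPM in P4 WT, with no overlap and a log2 difference of -0.34 (SE 0.16, adjusted p = 0.179). Gemin4, its partner, was read at 16.9, 15.1 and 12.0 CPM in P4 cKO, against 21.0 and 17.3 CPM in P4 WT, again without overlap, at a log2 difference of -0.39 (SE 0.23, adjusted p = 0.284). Coil followed, at 31.9, 28.5 and 25.8 CPM in P4 cKO, against 39.3 and 32.7 CPM in P4 WT, with a log2 difference of -0.32 (SE 0.18, adjusted p = 0.247). None of the 4 differences passed the threshold in the fit of all 9 samples, and 25.6% of all genes lay lower in every P4 cKO sample.

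Strap, the attachment of the outer arm, overlapped at P4, with 203.2, 256.3 and 268.9 CPM in cKO, against 165.3 and 224.7 CPM in WT. The log2 difference was 0.32 (SE 0.19, edgeR adjusted p = 0.287).

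At P7, 1 of the 10 genes passed the threshold, and it was lower in cKO, while 17% of all genes were called, 7.26% higher and 9.72% lower. The median log2 fold change of cKO over WT was 0.04 for the 10 genes, against 0.08 for all genes tested. The gene was Strap, at 157.4, 162.8 and 169.4 CPM in P7 cKO, against 273.8 CPM in P7 WT. All 3 cKO samples lay close together and below the WT sample, and the fold was 0.596 (log2 -0.75, SE 0.23, edgeR adjusted p = 0.0456). Strap lies in band 3 of 10 by GC content, counted upward (44.4% of its longest annotated transcript). The median log2 fold change of that band at P7 was -0.37. With the length and GC offsets its log2 difference was -0.26 (adjusted p = 0.581), and -0.34 and -0.26 with the 2 other ways of building them. The call was also lost with library totals (adjusted p = 0.0670), with the P7 groups fitted alone (adjusted p = 0.0826), and on leaving out any 1 of 6 libraries. These were cKO libraries 2 and 3 of each stage and either P7 WT library, with adjusted p-values of 0.0501 to 0.103. No member was called at P7 with any of the 3 forms of the offsets, and 2 genes were called in the whole table.

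The other members did not pass at P7. Ddx20 was read at 99.0, 90.9 and 90.8 CPM in P7 cKO, against 92.0 CPM in P7 WT, with the WT value inside the cKO range and a log2 difference of 0.02 (SE 0.20, edgeR adjusted p = 0.947). Gemin5 was at 146.5, 107.1 and 99.1 CPM in P7 cKO, against 105.5 CPM in P7 WT, at a log2 difference of 0.16 (SE 0.25, adjusted p = 0.700). Gemin4 stood at 50.7, 34.6 and 33.5 CPM in P7 cKO, against 31.4 CPM in P7 WT. Its cKO samples lay above the WT sample, at a log2 difference of 0.33 (SE 0.30, adjusted p = 0.463). The highest Gemin4 and Gemin5 values both come from the cKO library that stands apart. Coil was at 27.3, 31.6 and 27.2 CPM in P7 cKO, against 28.6 CPM in P7 WT, at a log2 difference of 0.00 (SE 0.23, adjusted p = 0.992) with a 95% interval from -0.49 to 0.50. Gemin6, at 15.2 to 23.9 CPM in P7 cKO, against 17.8 CPM in P7 WT, and Gemin8, at 13.5 to 16.9 CPM in P7 cKO, against 16.3 CPM in P7 WT, overlapped as well, with adjusted p-values of 0.921 and 0.845. In all, 7 of the 10 genes overlapped between genotypes at P7, 2 lay above in every cKO sample and 1 below. Of all genes, 36.2% lay above and 34.6% below, 70.8% together.

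**Figure D2:**
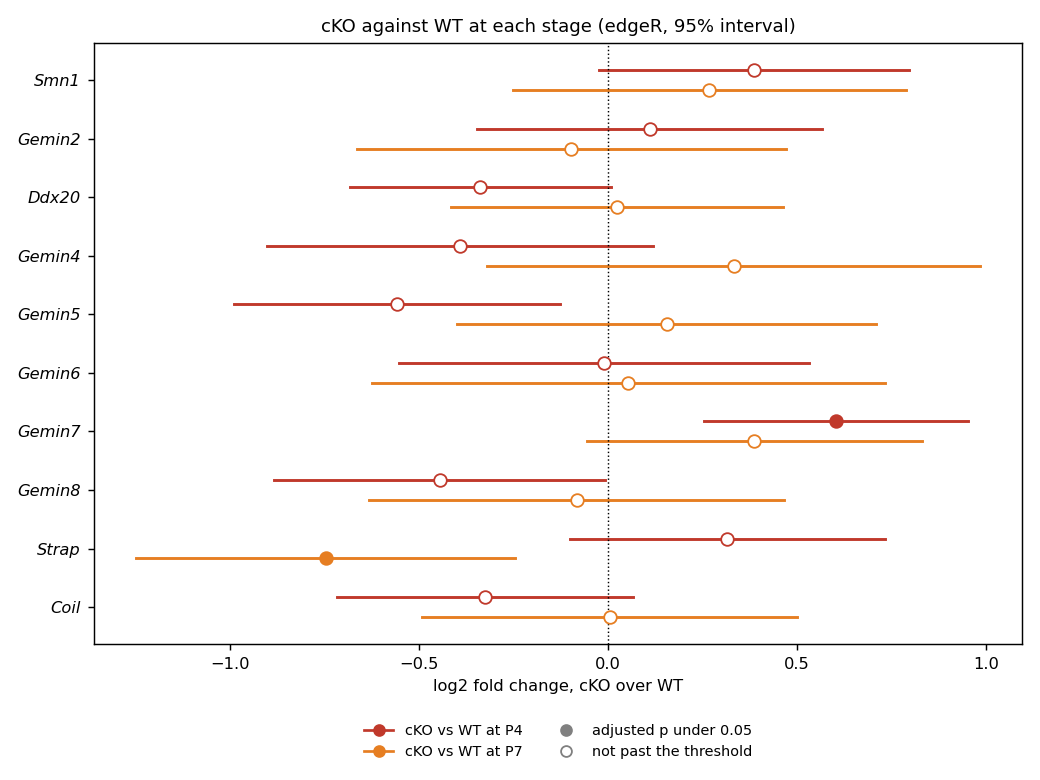
Log2 fold change of cKO over WT for each gene (horizontal axis), with P4 above P7. Points are edgeR estimates, lines their 95% intervals, and filled points passed the adjusted p threshold of 0.05. The filled points are Gemin7 at P4 (0.60) and Strap at P7 (-0.75).

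**Figure D3:**
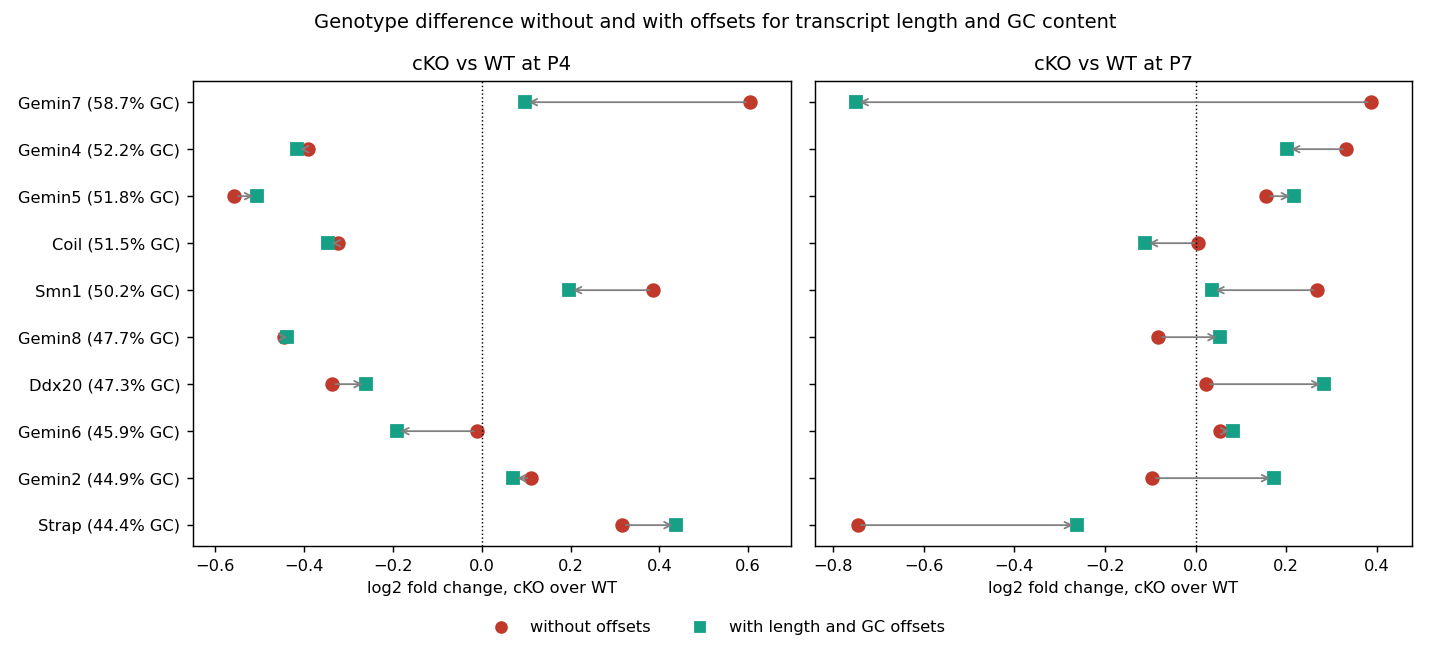
Log2 fold change of cKO over WT (horizontal axis) at P4 (left) and P7 (right), without offsets (circles) and with per-sample offsets for transcript length and GC content (squares). Genes are ordered by the GC content of their longest annotated transcript. The Gemin7 value moves to 0.10 at P4 and to -0.75 at P7, and the Strap value at P7 moves to -0.26.

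Between the stages, Gemin4 and Gemin5 showed the largest differences of the 10 genes in cKO. In P7 cKO against P4 cKO, 3 of the 10 genes rose and 1 fell, or 4 of 10, while 29.2% of all genes were called, 14.5% higher and 14.7% lower. In 5 genes every P7 cKO sample lay above every P4 cKO sample and in 2 below, against 22.9% and 23.2% of all genes, 46.1% together. The median log2 fold change was 0.32 for the 10 genes, against 0.00 over all genes tested. Gemin4 was read at 50.7, 34.6 and 33.5 CPM in P7 cKO, against 16.9, 15.1 and 12.0 CPM in P4 cKO. The lowest P7 value was higher than the highest P4 value, and the fold was 2.71 (log2 1.44, SE 0.21, edgeR adjusted p = 6.10e-04). Gemin5 was read at 146.5, 107.1 and 99.1 CPM in P7 cKO, against 51.3, 45.5 and 45.0 CPM in P4 cKO. Here too the stages did not overlap, with a fold of 2.49 (log2 1.31, SE 0.18, adjusted p = 3.94e-04). Both calls were kept in all 21 alternatives, between log2 1.22 and 1.62 for Gemin4 and between 1.12 and 1.49 for Gemin5. Without the P7 cKO library that stands apart, the log2 values were 1.22 and 1.12, with adjusted p-values of 1.89e-04 and 1.02e-04. Across the table, GC content moved little with stage in cKO, where the medians of the lowest and highest band were -0.05 and 0.05. In WT it moved with stage, with medians of 0.64 in the lowest and -0.60 in the highest band.

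Ddx20 rose less, at 99.0, 90.9 and 90.8 CPM in P7 cKO, against 72.0, 75.4 and 63.0 CPM in P4 cKO. The stages did not overlap and the log2 difference was 0.42 (SE 0.14, edgeR adjusted p = 0.0464), a call kept in 11 of 21 alternatives. It was lost on leaving out any 1 cKO library of either stage or either P4 WT library, without the low-count filter, and with offsets fitted on all genes, with adjusted p-values of 0.0518 to 0.162. Strap fell, at 157.4, 162.8 and 169.4 CPM in P7 cKO, against 203.2, 256.3 and 268.9 CPM in P4 cKO. The highest P7 value lay below the lowest P4 value, at a log2 difference of -0.57 (SE 0.17, adjusted p = 0.0253). That call was kept in 16 of 21 alternatives, with the offsets included (log2 -0.53, adjusted p = 0.0154). It was lost with library totals and without cKO library 2 or 3 of either stage, with adjusted p-values of 0.0525 to 0.0896. Gemin6 (log2 0.63, SE 0.22, adjusted p = 0.0502) and Gemin8 (log2 0.48, SE 0.18, adjusted p = 0.0643) lay higher in every P7 cKO sample but missed the threshold, and passed it in 12 and 7 of 21 alternatives. Gemin7 lay lower in every P7 cKO sample (log2 -0.34, SE 0.14, adjusted p = 0.0884). Smn1, Gemin2 and Coil overlapped between the stages, with log2 differences of -0.17, 0.23 and 0.00.

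In P7 WT against P4 WT, 0 of the 10 genes passed the threshold in edgeR or in DESeq2. Of all genes, edgeR called 21.8%, 11.8% higher and 9.97% lower. An unadjusted edgeR p below 0.05 was found for 2 members and for 6845 of the 18419 genes tested. The 2 members were the genes that rose most in cKO. Gemin4 was read at 31.4 CPM in P7 WT, against 21.0 and 17.3 CPM in P4 WT (log2 0.71, SE 0.30, edgeR adjusted p = 0.112). Gemin5 stood at 105.5 CPM in P7 WT, against 78.1 and 61.1 CPM in P4 WT (log2 0.60, SE 0.26, adjusted p = 0.118). For each of these genes the P7 WT value lay above both P4 WT values. With the 10 libraries as separate samples both passed (edgeR adjusted p = 0.0369 and 0.0403). That fit counts the P7 WT libraries, which differed by about sampling noise, as 2 samples. Both genes also passed without the first P7 cKO library (adjusted p = 0.0342 and 0.0371). Calls grew across the table in these fits, to 7279 and 6315 genes, against 4016. Strap lay higher at P7, at 273.8 CPM in P7 WT, against 165.3 and 224.7 CPM in P4 WT (log2 0.49, SE 0.25, adjusted p = 0.173). That value was 0.17, 0.29 and 0.11 with the 3 forms of the offsets, 0.28 without the first P4 WT library and 0.73 without the second. The median over the 10 genes was 0.28, against -0.03 over all genes tested. In 6 of the 10 genes the P7 WT sample lay above the P4 WT pair and in 2 below, as it did for 42.6% and 42.8% of all genes, 85.4% together. Coil lay lower, at 28.6 CPM in P7 WT, against 39.3 and 32.7 CPM in P4 WT (log2 -0.33, SE 0.24, adjusted p = 0.345).

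**Figure D4:**
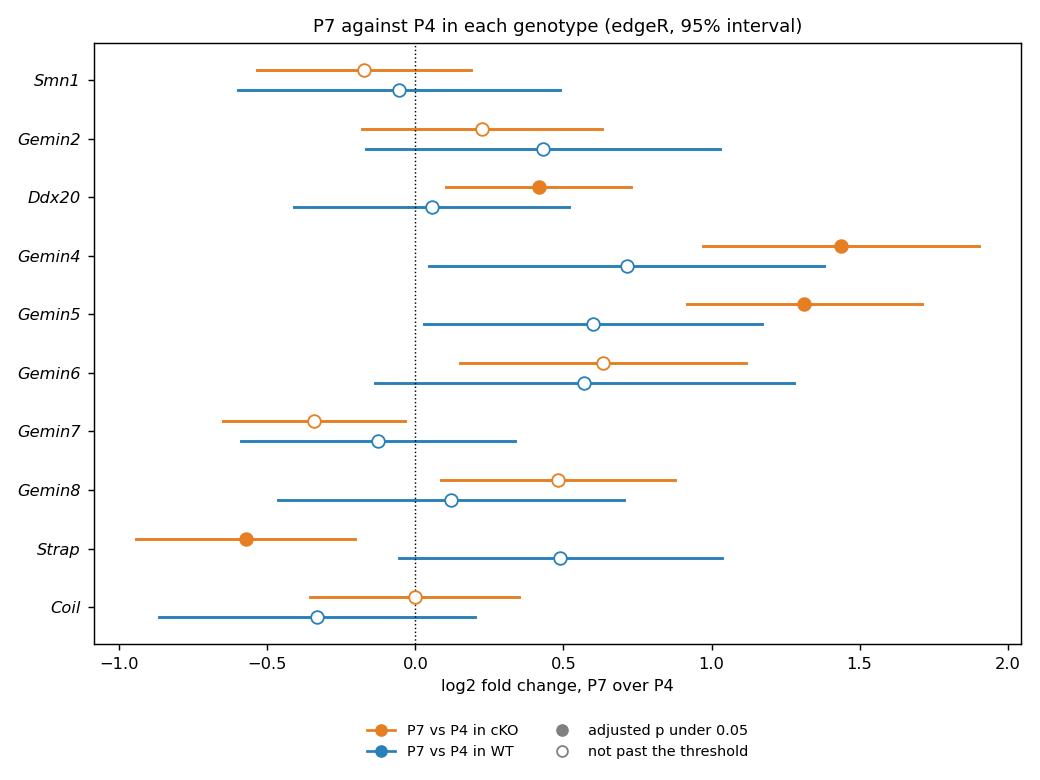
Log2 fold change of P7 over P4 for each gene (horizontal axis), with cKO above WT. Points are edgeR estimates, lines their 95% intervals, and filled points passed the adjusted p threshold of 0.05. Gemin4 (1.44) and Gemin5 (1.31) lie farthest to the right in cKO, and Strap lies on opposite sides of 0 in cKO (-0.57) and WT (0.49).

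Whether the stage difference depended on genotype was tested as the interaction, and 0 of 10 members and 0% of all genes passed in edgeR. At an unadjusted p below 0.05 there were 2 members and 4619 genes, and DESeq2 called 1 member and 1688 genes. Strap had the largest interaction of the 10 genes, at log2 -1.06 (SE 0.30, edgeR adjusted p = 0.0846). It passed in 5 of 20 alternatives, with adjusted p-values over all 20 from 0.00791 to 0.313. Gemin5 (log2 0.71, SE 0.33, adjusted p = 0.198) and Gemin4 (log2 0.72, SE 0.38, adjusted p = 0.253) each passed in 1 of 20. The larger stage differences of Gemin4 and Gemin5 in cKO are therefore not shown to differ from those in WT.

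Markers of the testis cell types moved with the stages too. The summed level of 18 germ cell markers was 1735 to 2085 CPM in P7 cKO, against 375.3 to 406.1 CPM in P4 cKO, and 2512 CPM in P7 WT, against 451.7 and 563.6 CPM in P4 WT. Of the 18 markers, 16 rose in cKO and 12 in WT, and none fell. Dppa3 was the marker at 0, in 1 P4 cKO library. The 12 peritubular and stromal markers summed to 3697 to 5546 CPM in P7 cKO, against 8642 to 12120 CPM in P4 cKO, and 8 of them fell. Of the 8 endothelial markers 6 fell in cKO, and of the 10 macrophage markers 6 fell, as did 5 of 9 Leydig cell markers. Of the 16 Sertoli cell markers 3 rose and 5 fell in cKO, and 10 of the 15 ribosomal protein genes fell. In WT the peritubular and stromal sum was 5655 CPM at P7, against 7703 and 9114 CPM at P4, and 2 of the 12 markers fell, with 5 of 8 endothelial, 2 of 9 Leydig cell, 0 of 10 macrophage and 2 of 15 ribosomal protein genes. Of the others in WT, 2 Leydig cell markers rose, and 5 Sertoli cell markers rose and 2 fell. Of the 2 erythroid markers tested, 1 rose in WT and 1 fell in cKO. Of 12 spermatid markers, 7 fell and 0 rose in WT, and 1 rose in cKO. Their WT sums, 21.38 and 18.69 CPM at P4 and 7.79 CPM at P7, were low and do not show that spermatids were present. Over all genes, 14.5% were called higher and 14.7% lower in cKO, and 11.8% higher and 9.97% lower in WT. Whether the marker counts differ between the genotypes was not tested. In these bulk samples, a different number of cells of a type and a different amount of RNA per cell cannot be told apart. The part of the cell mix in the stage differences of Gemin4, Gemin5, Ddx20 and Strap was not tested.

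Between genotypes at P4, the germ cell sum was 375.3 to 406.1 CPM in cKO, against 451.7 and 563.6 CPM in WT, and 3 of 18 markers were lower. The 16 Sertoli cell markers summed to 7967 to 8537 CPM in P4 cKO, against 5410 and 6631 CPM in P4 WT, with 4 higher. Among the others, 3 of 9 Leydig cell, 3 of 12 peritubular and stromal and 3 of 10 macrophage markers were higher. At P7 the germ cell sum was 1735 to 2085 CPM in cKO, against 2512 CPM in WT, with 1 marker higher and 2 lower. At that stage 1 Sertoli cell marker was higher and 3 lower, and 1 Leydig cell marker was higher and 1 lower. Of the peritubular and stromal markers, 1 was higher and 2 lower, while 2 endothelial markers were higher and 1 macrophage marker lower. Over all genes, 8.96% were called at P4 and 17% at P7. Of 12 spermatid markers, 6 were higher in P7 cKO. The 12 summed to 16.99 to 36.67 CPM in cKO, against 7.79 CPM in WT, where Prm1, Prm2, Tnp2, Smcp and Cabs1 were at 0. These low sums do not show that spermatids were present. The 4 globin genes among the 6 erythroid markers were at 0 in all 9 samples. The erythroid sum was 2.19 to 3.16 CPM in P7 cKO, against 16.35 CPM in P7 WT. Of the 2 erythroid markers tested, 1 was lower in cKO at P7 and 0 passed at P4. At P4 the sum was 4.37 to 19.45 CPM in cKO, against 6.16 and 5.04 CPM in WT. The 15 ribosomal protein genes taken as a check summed to 16290 to 20110 CPM in P4 cKO, against 7598 and 9442 CPM in P4 WT, and 13 of them were higher. At P7 they summed to 10100 to 13610 CPM in cKO, against 6311 CPM in WT, and 8 were higher. The part of these markers and of the ribosomal protein genes in the Gemin7 difference at P4 and the Strap difference at P7 was not tested.

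Across the 9 samples, the members fell into sets that moved together, which is given as a description, since the samples share the group differences above. The Pearson correlation of log2 CPM was 0.98 for Gemin4 with Gemin5, 0.89 for Ddx20 with Gemin5 and 0.86 for Ddx20 with Gemin4. Smn1 and Gemin7 were alike at 0.81, while Gemin7 and Gemin8 ran opposite at -0.81. Gemin4 over Ddx20, 2 proteins that bind each other, had a per-length ratio of 0.403, 0.300 and 0.290 in P7 cKO, against 0.184, 0.157 and 0.149 in P4 cKO. In WT the ratio was 0.269 at P7, against 0.173 and 0.166 at P4, so all P7 samples lay above all P4 samples. The share of the summed RPKM of the 10 genes held by Gemin5 was 9.18%, 6.72% and 6.38% in P7 cKO, against 3.30%, 2.67% and 2.71% in P4 cKO. Strap held 23.2%, 24.0% and 25.7% in P7 cKO, against 37.6% in P7 WT, and 30.7%, 35.3% and 38.0% in P4 cKO, against 28.0% and 35.1% in P4 WT. The P7 cKO samples thus held the 3 lowest Strap shares of the 9.

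**Figure D5:**
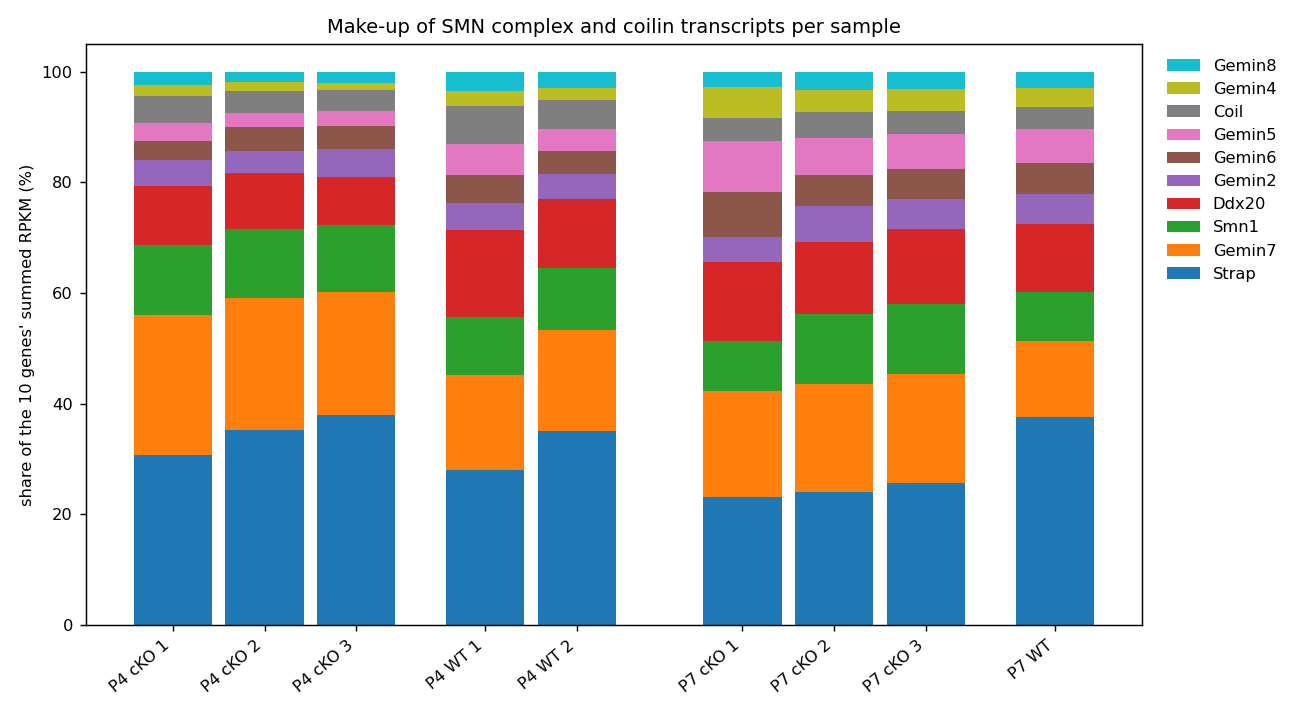
Share of each gene in the summed RPKM of the 10 genes (vertical axis, percent) in each sample (horizontal axis). Bars are stacked to 100%, in the order of the legend. Strap takes 23.2% to 25.7% in the P7 cKO samples and 37.6% in P7 WT, and the Gemin5 and Gemin4 segments are wider in the P7 than in the P4 samples.

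Outside the gene lists, the genes whose log2 CPM followed Smn1 most closely over the 9 samples were Gstp1, a glutathione transferase, at a Pearson correlation of 0.98, Tmem37 at 0.98 and the transcription factor Sox12 at 0.98. Those closest to Coil were Ppif, the mitochondrial cyclophilin D, at 0.95, Tarm1 at 0.94 and Zfp512 at 0.94. They were taken as the highest of 16661 candidates, among which 29 passed 0.95 for Smn1 and 0 for Coil. Tarm1 was close to 0 CPM throughout.

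The wider pathway was described with 5 lists. Of the Sm core proteins that the complex loads, 1 of 9 tested was higher in cKO at each stage and none was lower, with medians of 0.60 at P4 and 0.48 at P7 on the log2 scale, against 0.00 and 0.08 over all genes tested. For this and the following lists, 4.84% of all genes were called higher and 4.13% lower at P4, and 7.26% higher and 9.72% lower at P7. At P4 the gene was Snrpb, the SmB protein, at 116.9, 99.2 and 145.5 CPM in P4 cKO, against 22.8 and 43.5 CPM in P4 WT (log2 1.86, SE 0.43, edgeR adjusted p = 0.0297). At P7 it was Snrpd2, the SmD2 protein, at 240.9, 146.6 and 102.5 CPM in P7 cKO, against 52.7 CPM in P7 WT (log2 1.63, SE 0.40, adjusted p = 0.0211). Neither gene's groups overlapped. In the methylosome, which methylates Sm proteins before assembly, 1 of 6 genes was lower at P4 and none passed at P7, with medians of 0.17 and 0.15. That gene was Riok1, an adaptor of Prmt5, at 62.0, 67.3 and 57.7 CPM in P4 cKO, against 111.7 and 80.4 CPM in P4 WT (log2 -0.62, SE 0.18, adjusted p = 0.0480).

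Of the 8 genes for snRNA export, import and cap, 1 was lower at P4 and 3 were lower at P7, and none was higher, with medians of -0.14 and -0.24. Xpo1, the export receptor that carries snRNAs out of the nucleus, was lower at both stages, at 680.1, 567.9 and 576.3 CPM in P4 cKO, against 1421 and 1252 CPM in P4 WT (log2 -1.14, SE 0.20, edgeR adjusted p = 0.0147). At P7 it was at 698.0, 485.1 and 658.9 CPM in cKO, against 1668 CPM in WT (log2 -1.44, SE 0.24, adjusted p = 0.00695). Every cKO sample lay below every WT sample of its stage. The other 2 lower genes at P7 were Tgs1 (log2 -1.11, SE 0.18), the enzyme that trimethylates the snRNA cap, and the import receptor Ipo8 (log2 -0.89, SE 0.22), with adjusted p-values of 0.00675 and 0.0216.

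Of the 15 tested genes for snRNA transcription and processing, 3 were lower at P4 and none higher, and at P7 3 were higher and 3 lower, with medians of -0.23 and 0.17. The lower ones at P4 were the Integrator subunits Ints8 (log2 -1.03, SE 0.20) and Ints13 (log2 -0.75, SE 0.19) and the snRNA promoter factor Snapc3 (log2 -0.65, SE 0.18), with edgeR adjusted p-values of 0.0191, 0.0398 and 0.0467. Ints8 (log2 -1.07) and Snapc3 (log2 -0.97) were lower at P7 as well, beside Ice2 (log2 -0.93), with adjusted p-values of 0.0156, 0.0162 and 0.0167, while Snapc4, of the same promoter complex as Snapc3, was higher (log2 1.09, SE 0.31, adjusted p = 0.0363). Among the 15 genes of Cajal bodies and their small RNA particles, 3 were higher and 1 lower at each stage, with medians of 0.05 and 0.55. At P4 these were Nhp2 (log2 1.17, SE 0.21) and Nop10 (log2 1.17, SE 0.27), of pseudouridylating particles, and Fbl (log2 0.80, SE 0.18), the methyltransferase fibrillarin, all higher, and Npat (log2 -0.65, SE 0.16), of histone gene transcription, lower, with adjusted p-values of 0.0160, 0.0269, 0.0262 and 0.0365. At P7 Nhp2 (log2 1.03), Fbl (log2 1.03) and Sart3 (log2 0.94), a U6 recycling factor, were higher and Npat (log2 -1.15) lower, with adjusted p-values of 0.0284, 0.0172, 0.0173 and 0.00773. Calls in these lists ran both ways and changed with the offsets.

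Without offsets, 10 genes of the 5 lists were called at P4, 4 higher and 6 lower, and 14 at P7. With the centred offsets 1 was called at P4, which was Xpo1 (log2 -0.88, edgeR adjusted p = 0.0457), and 0 at P7. The form fitted on all genes called 8 at P4, 6 higher and 2 lower, and 0 at P7, and the remaining form called 1 and 0. Xpo1 passed the threshold at P4 in each form (log2 -0.90 and -0.97 in the other two) and was at -0.53, -0.57 and -0.51 at P7, with adjusted p-values of 0.366, 0.369 and 0.411. At P7 the centred offsets put Tgs1 at -0.34, Npat at -0.17, Snapc3 at -0.03, Fbl at 0.56 and Snrpd2 at 0.89 on the log2 scale. The P7 median of the Sm core list was 0.41, 0.40 and 0.42 with the 3 forms, and that of the Cajal body list 0.38, 0.34 and 0.39. Over the whole table, the 3 forms called 616, 1438 and 639 genes at P4, against 1651 without offsets, and 2 genes each at P7, against 3129.

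Between the stages in cKO, 2 of 9 Sm core genes rose, 2 of 6 methylosome genes rose and 1 fell, 4 of 15 genes for snRNA transcription and processing rose and 1 fell, 5 of 15 genes of the Cajal body list rose, and 0 of 8 for export, import and cap passed. Over all genes, 14.5% were called higher and 14.7% lower. In WT, 0 of 9 Sm core genes, 2 of 6 methylosome genes, 2 of 8 for export, import and cap, 3 of 15 for snRNA transcription and processing and 2 of 15 of the Cajal body list rose, and none fell, against 11.8% of all genes higher and 9.97% lower. With the 3 forms of the offsets, 4, 5 and 4 genes of the 5 lists rose in WT and 3, 2 and 3 fell, against 9 and 0 without. The list medians between stages ran from -0.08 to 0.38 in cKO and from -0.03 to 0.27 in WT, against 0.00 and -0.03 over all genes tested.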

How the data were processed

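RNA-seq of testis was deposited as 1 table of raw counts per gene by the authors, whole numbers with coordinates and exon lengths per the file headers. Per the submitters' processing notes, STAR 2.7.11a on GRCm38 and featureCounts of Subread 2.0.6 were among the tools, beside Trim Galore 0.6.10 and SAMtools 1.6, with FastQC 0.12.1 and MultiQC 1.14. The strand option and the rule for reads with several matches were not given. Of counts under 50, 67.8% to 80% were even. Counting each mate would give such a pattern, and reads would then not be independent, but the cause was not tested.

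Groups came from the labels. The P7 WT libraries were summed to 1 sample. Genes were filtered with filterByExpr, scaled with TMM factors and tested (edgeR 4.0.16, R 4.3.3) by the robust quasi-likelihood F test with 1 mean per group, 9 samples and 5 residual degrees of freedom. P-values were two-sided and Benjamini-Hochberg adjusted over 18419 genes, with 0.05 as the threshold. SE was taken from the fold change and its F statistic. Correlations used log2 CPM with a prior count of 2. Scripts were tested on simulated data.

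Alternatives were RLE factors, library totals, no filter, a minimum count of 50, DESeq2 1.42.0, the compared groups alone, 10 libraries with and without a replicate block, length and GC offsets, and each library left out. The offsets were splines of 5 degrees of freedom in exon length and GC content (known for 97.7% of genes). They were built 3 ways: fitted on all genes, on genes of average log2 CPM of 2 or more, and the same centred on each sample's median. The centred form was adopted after the results of all 3 had been seen, and the other 2 count as added alternatives.

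The members and gene lists were chosen with earlier results of these data known. The named genes are the 10 members, Lsm7, up to 4 called genes of smallest p per list and genotype comparison, and the 3 genes most correlated with Smn1 and with Coil. Overlaps between genes used the exon coordinates deposited with the counts. Exon bases upstream of the starts and GC content used GENCODE vM21, and promoters RefSeq, on GRCm38. GC content is that of the longest transcript of each gene.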

Additional observations from a re-analysis of the deposited data

Results flagged for a closer look

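Strap differed in direction between the genotypes across the stages. It lay higher in the P7 WT sample (273.8 CPM) than in both P4 WT samples (165.3 and 224.7 CPM), and lower in all 3 P7 cKO samples (157.4 to 169.4 CPM) than in all 3 P4 cKO samples (203.2 to 268.9 CPM). The interaction was -1.06 on the log2 scale (SE 0.30, edgeR adjusted p = 0.0846) and did not pass the threshold. With the length and GC offsets it was -0.70 (adjusted p = 0.194). The WT difference alone, 0.49 on the log2 scale, was 0.11 to 0.29 with the 3 forms of the offsets.

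Gemin4 lay lower in all 3 P4 cKO samples (12.0 to 16.9 CPM) than in both P4 WT samples (17.3 and 21.0 CPM), and higher in all 3 P7 cKO samples (33.5 to 50.7 CPM) than in the P7 WT sample (31.4 CPM). The interaction was 0.72 on the log2 scale (SE 0.38, edgeR adjusted p = 0.253), which did not pass the threshold. P7 WT is 1 sample in both patterns.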

How the results depend on the processing

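Of the 6 calls among the 10 genes, those of Gemin4 and Gemin5 for P7 over P4 in cKO were kept in all 21 alternatives. The other 4 were kept in fewer: Gemin7 at P4 in 9, Strap at P7 in 10, Ddx20 in 11 and Strap in 16 of 21 for P7 over P4 in cKO. None of these 6 log2 fold changes turned its sign.

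Length and GC offsets left 0 members and 616 genes called for cKO over WT at P4, and 0 members and 2 genes at P7. Of 3 forms of the offsets, the centred one just given was adopted after all had been seen. Fitted on all genes without centring, they left 0 members and 1438 genes at P4 (1043 higher and 395 lower), 0 members and 2 genes at P7 and 1 gene in the interaction. Fitted on the better-expressed genes without centring, they left 0 members and 639 genes at P4, 0 members and 2 genes at P7 and 1 gene in the interaction. In all, 4 of 10 members were called for P7 over P4 in cKO with the first of these, 6 with the second and 5 with the centred form, and Gemin4 and Gemin5 were among them each time.

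With library totals, no filter or the compared groups alone, members called at P4 numbered 1, 0 and 2, and at P7 0, 1 and 0. The compared groups alone gave 3229 genes at P4 and 0 at P7, where WT is 1 sample, so the residual spread came from cKO alone. Library totals moved the median of all genes to log2 -0.16 at P4, 0.19 at P7, -0.11 between stages in WT and 0.18 in cKO. They turned the split of calls to 528 higher and 1544 lower at P4, against 891 and 760 with TMM. At P7 it was 1744 higher and 1402 lower, against 1338 and 1791. Between stages it was 1871 and 2105 in WT, against 2179 and 1837, and 3907 and 1818 in cKO, against 2663 and 2709. The member called at P4 was then Gemin5, lower, in place of Gemin7, and between stages in cKO 5 members rose and 0 fell. In the interaction library totals called 3 genes and the fit without a filter 431.

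With the P7 WT libraries as separate samples, 10 libraries gave 2895 genes at P4, 2 members and 6905 genes at P7, 2 members and 7279 genes between stages in WT, 7 members in cKO, and 1 member and 3105 genes in the interaction. DESeq2 called 2961 genes at P4, and 1 member and 1688 genes in the interaction. Whether shared replicate numbers pair the samples was not settled. The 13 same-numbered pairs had correlations of -0.19 to 0.34, with 4 above 0.1. Those with a P7 WT library ran from -0.013 to 0.019 and could not show pairing, since these libraries differed by about sampling noise. With the replicate block, 2732 genes were called at P4, 2 members and 7438 genes at P7, 3 members and 7812 genes between stages in WT, and 3 members and 4311 genes in the interaction.

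Leaving out 1 library gave 0 to 2 members and 2 to 4157 genes at P4, 0 to 1 members and 961 to 4921 genes at P7, 0 to 2 members and 1187 to 6315 genes between stages in WT, 2 to 5 members and 3520 to 5569 genes in cKO, and 0 to 1 members and 0 to 1455 genes in the interaction. The fewest genes at P4 were called without the first P4 WT library, and the most without the first P7 cKO library.

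Signs turned only for values that had not passed the threshold. For cKO over WT at P4, Gemin2 became -0.051 with library totals and -0.015 with uncentred offsets on better-expressed genes, and Gemin6 became 0.047 with the replicate block and 0.072 with offsets fitted on all genes. At P7, Gemin2 became 0.010 and Gemin8 0.025 with library totals, Coil -0.016 without a filter and -0.027 with the compared groups alone, and Ddx20 -0.0067 with that last fit. With the centred offsets at P7, Gemin7 became -0.75, Gemin2 0.17, Gemin8 0.054 and Coil -0.11. With those fitted on all genes, Gemin7 became -0.68, Gemin2 0.10, Coil -0.17 and Smn1 -0.0031, and with the uncentred ones on better-expressed genes Gemin7 became -0.75, Gemin2 0.17, Gemin8 0.056 and Coil -0.11. For P7 over P4 in WT, Ddx20 became -0.033 with library totals, -0.0082 with a minimum count of 50, and -0.13, -0.021 and -0.19 with the centred, all-gene and uncentred offsets. In the same order Gemin7 became 0.62, 0.52 and 0.56, Smn1 became 0.021 and 0.12 with the first 2 forms, and Gemin8 became -0.060 with the last. For P7 over P4 in cKO, Coil became 0.017 with RLE factors, 0.18 with library totals, 0.014 with a minimum count of 50, 0.0024 with the replicate block, 0.034 with the compared groups alone and 0.016 with DESeq2, and Smn1 became 0.0064 with library totals. In the interaction, library totals gave Smn1 0.15, Gemin2 0.061 and Gemin7 0.051, the offsets gave Gemin2 0.10 (centred) and 0.19 (uncentred), and those fitted on all genes gave Gemin6 -0.023.

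Leaving out 1 library turned signs within these ranges. At P4 they were -0.0071 to 0.18 for Gemin2 and -0.12 to 0.10 for Gemin6. At P7 they were -0.24 to 0.022 for Gemin2, -0.019 to 0.071 for Ddx20, -0.033 to 0.27 for Gemin5, -0.18 to 0.18 for Gemin6, -0.16 to 0.0097 for Gemin8, -0.069 to 0.064 for Coil and -0.53 to 0.096 for Lsm7. For P7 over P4 they were -0.17 to 0.059 for Smn1 and -0.050 to 0.16 for Ddx20 in WT, and -0.077 to 0.078 for Coil in cKO. In the interaction they were -0.23 to 0.020 for Smn1 and -0.17 to 0.19 for Gemin6. The cause of these changes was not tested.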
